A study of Gallus gallus with 4 samples.

Results

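Smooth muscle cells and pericytes wrap the endothelial tube of a blood vessel. The 10 genes described here are known marks of these mural cells, chosen by name, and 9 of them (ACTA2, TAGLN, MYH11, DES, MYLK, CALD1, PDGFRB, PDGFRA and RGS5) have a probe set under their symbol on the chicken array, 19 probe sets in all among 37693. The array names 13008 genes. For CNN1, which encodes the contractile protein calponin, no probe set was matched. In the experiment, human recombinant VEGF-A (3 µg, dried onto a plastic disc) was placed on the intact chorio-allantoic membrane (CAM) of chick embryos on day 13, and tissue under the disc was taken 24 h later, on day 14, where new capillaries were visible. RNA of 3 such membranes (VEGF CAMs 1, 2 and 3) was hybridised to 1 array each, and 1 array received a pool of RNA from 3 normal CAMs of day 14. The sources differ on whether the controls carried a disc with solvent or were untouched, and no strain, sex or genotype was stated. Areas taken for their capillaries, a single pooled control and whole-membrane RNA limit what the arrays can show about mural cells.

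By way of background, actin and myosin of smooth muscle pull against each other when myosin light chain kinase phosphorylates myosin, and actin-binding proteins such as caldesmon and transgelin tune or accompany that movement. Growing endothelium releases PDGF-B, which draws mural cells to the new tube through the receptor PDGFRB. Pericytes of capillaries carry less of the contractile apparatus than muscle of arteries, while receptors and RGS5 are used to recognise them. Whole tissue was measured, so fewer mural cells and less RNA per mural cell cannot be told apart in any value below.

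All deposited values are linear signals, 1 per probe set and array, and 3 values given together for the VEGF CAMs follow their order 1, 2 and 3. Each array was scaled to the same trimmed mean, and the median chicken signal lay between 15.3 and 19.1, with the control pool at the upper end. A probe set counted as measured when its mean over the 4 arrays was above 11.1, the 40th percentile, which 22616 probe sets were. Ratios of 3' to 5' signal, a sign of RNA quality, were highest in the pool for actin (24.2 against 15.5 to 22.9), GAPDH (61.1 against 36.6 to 57.6) and EF1a (8.74 against 5.74 to 7.38). Their part in the ratios below was not tested.

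The mural genes went both ways, and the share of them called was near that of genes in general. Of the 8 genes measured above the filter, 0 lay more than 2-fold above the pool in 2 or 3 of the VEGF CAMs, and 1, the dim PDGFRA, lay more than 2-fold below it. Over all probe sets past the filter the corresponding shares were 6.79% and 9.25%, so that 42.3% of all calls were higher, against 66.6% with arrays centred on their medians. Over the 10505 named genes past the filter, each at its brightest probe set like the members, the shares were 5.37% higher and 6.03% lower. Without regard to size, 3 of the 8 (ACTA2, MYH11 and PDGFRB) were above the pool in all VEGF CAMs and 1 was below it in all, against 23.2% and 31.9% of probe sets and 24.6% and 29.8% of named genes. The median of the 8 mean log2 ratios was 0.030, against -0.11 over all probe sets past the filter and -0.067 over named genes. All 3 VEGF CAMs stayed within 2-fold of the control in 5 of the 8 genes, against 60.2% of probe sets and 69.5% of named genes. By limma, fitted over all these probe sets with Benjamini-Hochberg adjustment, 0 of the 8 genes passed an adjusted p of 0.05, and 0 had an unadjusted p below that value. The limma fit passed 0 of the 22616 probe sets too (0%), while an unadjusted p under 0.05 was reached by 3.86% of them upwards and by 2.41% downwards. Its error rests on the spread between 3 CAMs, with the lone control array assumed to vary like them, and the smallest p of an exact permutation test is 0.25 in this design.

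**Figure D1:**
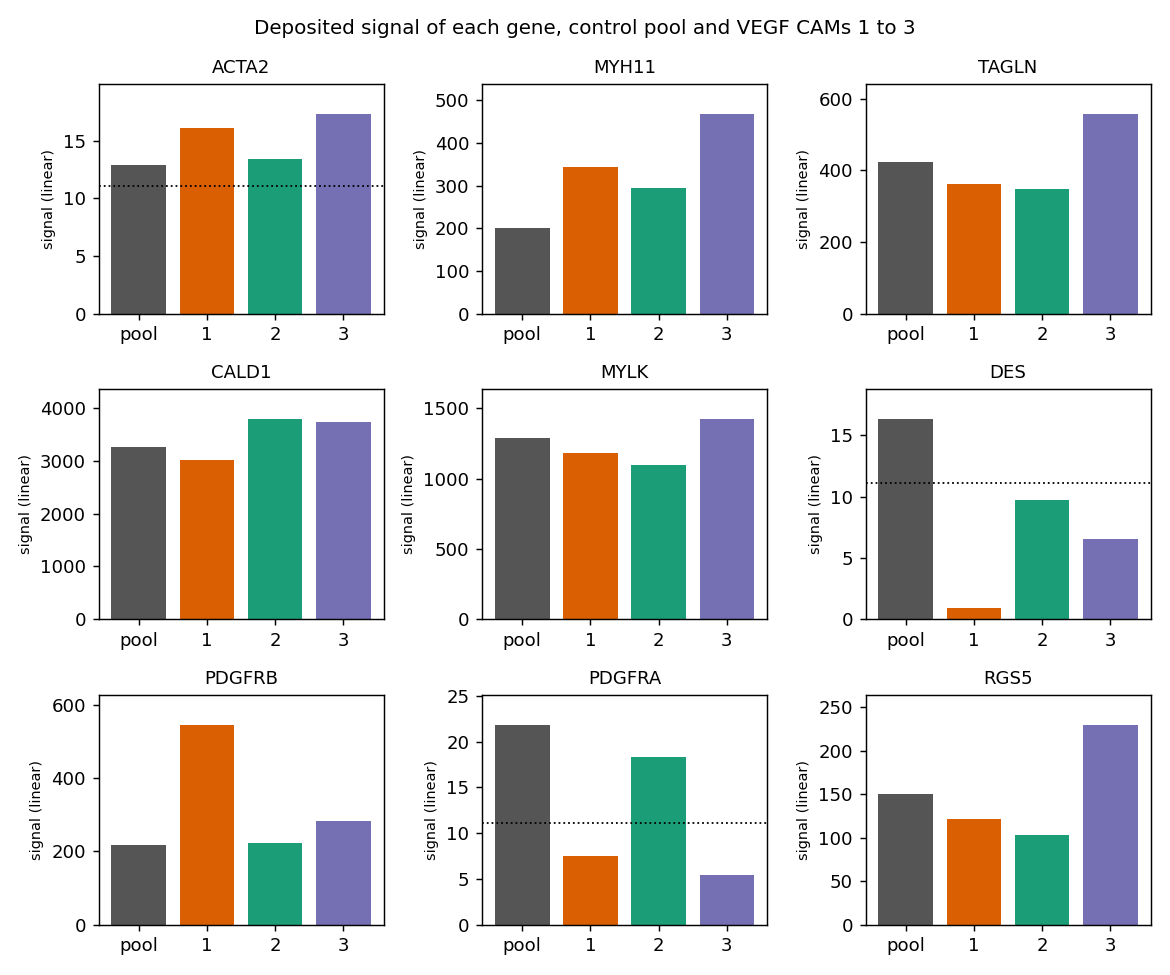
Deposited linear signal (y axis, from 0, a separate scale in each panel) of the probe set that represents each gene, on the array of the control pool and of VEGF CAMs 1, 2 and 3 (1 array per bar, so no error bar). The dotted line in the 3 dim genes is the filter at 11.1. MYH11 stands at 202 in the pool and at 296 to 469 in the VEGF CAMs, while CALD1 and MYLK keep nearly level bars. Heights of different genes are not comparable.

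MYH11, the heavy chain of smooth muscle myosin and the member most restricted to that cell type, read 202 in the pool, while the VEGF CAMs read 343, 296 and 469, in their order 1, 2 and 3. All 3 VEGF CAMs were above the pool, and 1 of them, VEGF CAM 3, was beyond 2-fold. On the log2 scale its ratio averaged 0.84 ± 0.34 (SD, n = 3 CAMs), with a 95% interval from -0.02 to 1.71 and a limma adjusted p of 0.80. With each array centred on its own median, MYH11 also passed 2-fold in VEGF CAM 1 and became the 1 member called higher, at a mean log2 ratio of 1.10.

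ACTA2 encodes smooth muscle alpha-actin, the usual stain for mural cells. Its only probe set was dim on every array, at 12.8 in the pool and, in the order of the VEGF CAMs, at 16.1, 13.4 and 17.3. The VEGF CAMs were all slightly above the pool, at a mean log2 ratio of 0.27 ± 0.19 (SD, n = 3). The interval from -1.46 to 2.00 is wide, because the fit allows more spread to dim probe sets, and the adjusted p was 0.94 by limma. A signal this close to the filter does not show how abundant the transcript was.

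TAGLN, the actin-binding protein transgelin (SM22), read 424 in the pool, and 362, 349 and 558 in the VEGF CAMs. The pool thus lay inside the range of the VEGF CAMs. Its mean log2 ratio of -0.038 ± 0.38 (SD, n = 3) was smaller than the spread between CAMs (95% interval -0.92 to 0.84, limma adjusted p = 0.98). Its sign depended on the scaling and turned to 0.22 with each array centred on its median.

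CALD1, caldesmon, which binds actin and restrains myosin, had the narrowest interval of the representing probe sets. The pool read 3275 and the VEGF CAMs 3027, 3794 and 3747, so the groups overlapped. The log2 ratio averaged 0.10 ± 0.18 (SD, n = 3), with an interval from -0.52 to 0.72 and a limma adjusted p of 0.94.

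MYLK, the myosin light chain kinase that starts smooth muscle contraction, likewise had its control signal of 1288 within the values of the VEGF CAMs (1181, 1098 and 1422). A mean log2 ratio of -0.071 ± 0.19 (SD, n = 3) was found, the interval ran from -0.75 to 0.61 and the limma adjusted p was 0.96. Centring arrays on their medians turned the ratio to 0.18. The intervals of TAGLN, CALD1 and MYLK therefore all lay inside 2-fold in either direction, as did those of 13.5% of all probe sets and 19.7% of named genes past the filter. Fitted without a variance trend, 0 of the 3 intervals did, so this width rests on the trend. Without VEGF CAM 3, 1 did, that of CALD1.

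DES encodes desmin, an intermediate filament of muscle and of many pericytes. Both of its probe sets failed the filter. The brighter gave 16.3 in the pool and 0.875, 9.73 and 6.57 in the VEGF CAMs, and the dimmer 6.28 in the pool and 3.94 to 6.12 in the VEGF CAMs. The pool had the highest value at both, but signals at this level have no reliable ratio, and the value of 0.875 lies below the 20th percentile of all signals (3.12).

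**Figure D2:**
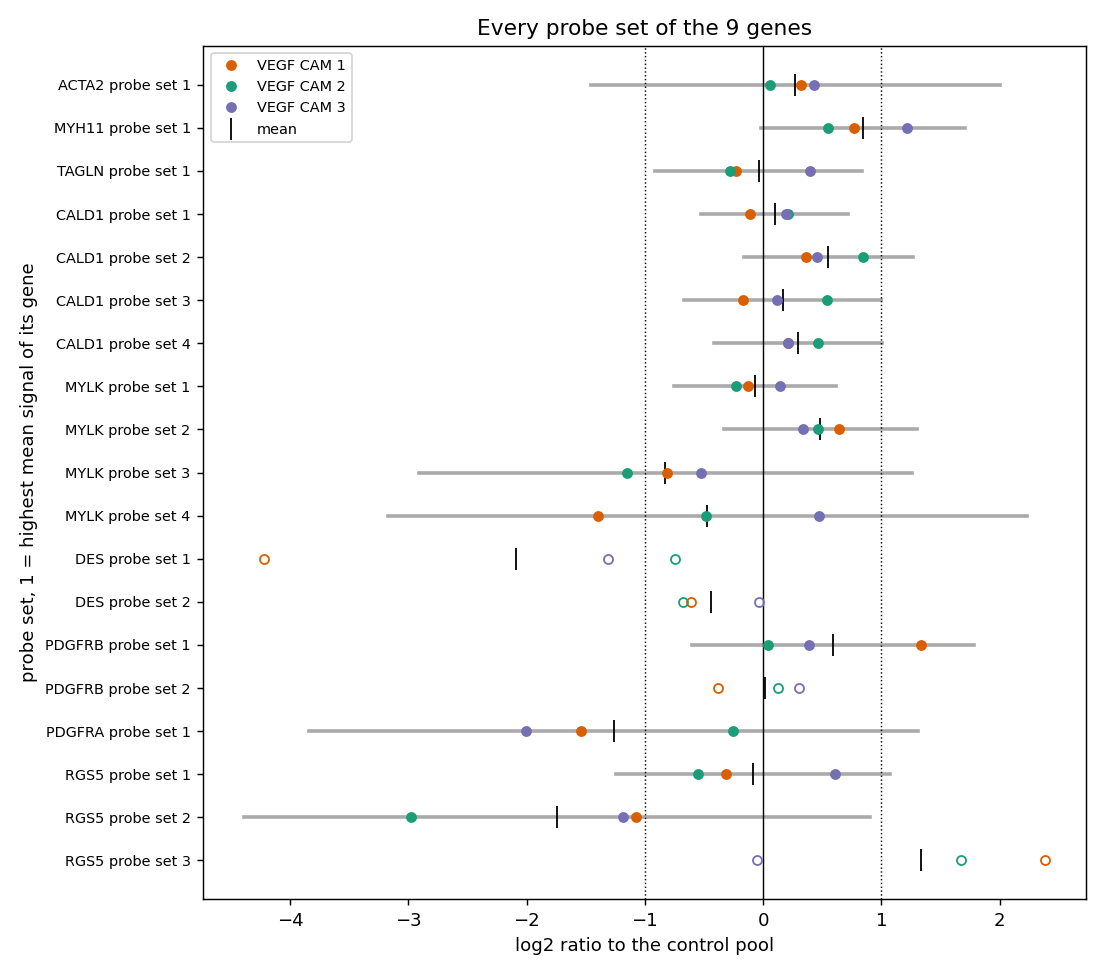
Log2 ratio to the control pool (x axis) of all 19 probe sets of the 9 genes (y axis, numbered from the brightest within a gene). Points are VEGF CAMs 1, 2 and 3, black ticks their mean and grey lines the 95% interval of the limma fit, while open points without a line mark probe sets below the filter. Dotted lines mark 2-fold. The 4 CALD1 probe sets have means from 0.10 to 0.55, and those of MYLK lie on both sides of 0. RGS5 has a mean above 0 only at its probe set below the filter.

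Where a gene had several probe sets, they served as a second reading of the same RNA. The 4 probe sets of CALD1 all had a mean log2 ratio above 0, at 0.10, 0.55, 0.16 and 0.30 from the brightest to the dimmest. At each of them VEGF CAM 2 had the largest ratio of the VEGF CAMs. The second gave 1134 in the pool and 1459, 2035 and 1552 in the VEGF CAMs, with all 3 above the control (limma adjusted p = 0.85).

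For MYLK the second probe set read 76.9 in the pool and 120, 106 and 97.3 in the VEGF CAMs, a mean log2 ratio of 0.48 ± 0.15 (SD, n = 3), while the brightest was level. The other MYLK probe sets were dim (19.0 and 13.7 in the pool) and had means of -0.83 and -0.47. MYLK makes a long and a short kinase and telokin, a small protein from the same gene. The tables used here do not say which of these each probe set reads.

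Among receptors, PDGFRB is the one through which PDGF-B recruits pericytes. Its signal was 216 in the pool against 546, 223 and 284 in the VEGF CAMs. All 3 were above the pool, and VEGF CAM 1 was alone beyond 2-fold. Over the VEGF CAMs the log2 ratio averaged 0.59 ± 0.67 (SD, n = 3), smaller than the spread between CAMs, with an interval from -0.60 to 1.78 and a limma adjusted p of 0.87. Without VEGF CAM 1 the mean was 0.22. Its second probe set failed the filter (2.54 in the pool and 1.95 to 3.13 in the VEGF CAMs).

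PDGFRA, the sister receptor, marks fibroblasts and other mesenchyme more than pericytes. It was dim, at 21.9 in the pool and at 7.53, 18.4 and 5.44 in the VEGF CAMs. All 3 were below the pool, with VEGF CAM 2 close to it. Averaged, its log2 ratio was -1.26 ± 0.91 (SD, n = 3), the interval of -3.84 to 1.31 included 0, and the limma adjusted p was 0.87. The call by the 2-fold rule rested on VEGF CAMs 1 and 3, the only ones beyond 2-fold. Both were below the filter level of 11.1, so PDGFRA passed the filter through the pool and VEGF CAM 2. With 1 VEGF CAM left out, here and below, a call needs both remaining CAMs beyond 2-fold. Losing this call without VEGF CAM 1 or without VEGF CAM 3 was therefore fixed in advance. With an offset of 32 added to each signal the log2 ratio was -0.36. This offset exceeds the pool signal of 21.9, so no lower call was possible there, and its absence was fixed in advance too.

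RGS5 encodes a regulator of G protein signalling that shortens signals of vasoconstrictor receptors and is widely used as a pericyte mark. At its brightest probe set the pool read 151 and the VEGF CAMs 121, 103 and 230.0, so the pool lay between the VEGF CAMs. Its mean log2 ratio was -0.085 ± 0.61 (SD, n = 3), with an interval from -1.25 to 1.08 and a limma adjusted p of 0.97, and turned to 0.17 with each array centred on its median. A second, dim RGS5 probe set was more than 2-fold below the pool in every VEGF CAM, at 28.8 against 13.7, 3.66 and 12.6. Its mean log2 ratio was -1.75 (interval -4.39 to 0.90, limma adjusted p = 0.86). The third failed the filter, at 1.87 in the pool and 9.81, 5.97 and 1.81 in the VEGF CAMs. Both RGS5 probe sets past the filter thus had a mean below 0, but at the brightest VEGF CAM 3 lay above the pool.

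**Figure D3:**
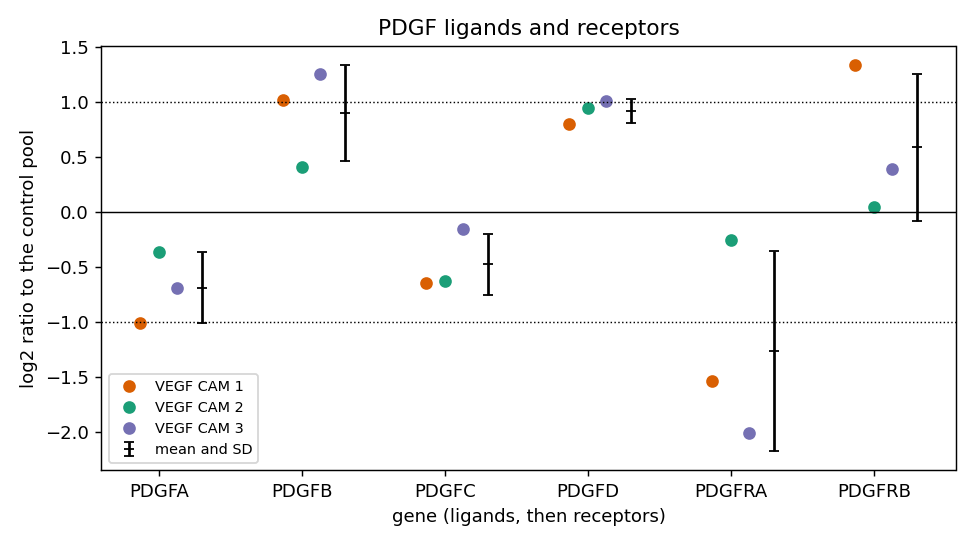
Log2 ratio to the control pool (y axis) of the 4 PDGF ligands and of both PDGF receptors (x axis). Points are VEGF CAMs 1, 2 and 3, bars the mean and SD of the 3 ratios, and dotted lines 2-fold. PDGFB and PDGFD lie above 0 in all VEGF CAMs, PDGFA and PDGFC below it, and PDGFRB is spread from 0.04 to 1.34.

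The ligands of these receptors were all measured. PDGFB, the endothelial signal to pericytes, had 685 in the pool and 1388, 911 and 1639 in the VEGF CAMs, and was beyond 2-fold in 2 of them. Its mean log2 ratio was 0.90 ± 0.44 (SD, n = 3, interval 0.0087 to 1.79, limma adjusted p = 0.79). The study picked PDGFB on these same arrays, so its direction is not independent. PDGFD, another ligand of PDGFRB, had 381 in the pool and 665, 733 and 769 in the VEGF CAMs, a mean log2 ratio of 0.92 ± 0.11 (SD, n = 3) with little spread between CAMs (interval 0.23 to 1.61, limma adjusted p = 0.70). Its second probe set had 0.62 and a dim further one -0.31.

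PDGFA, the main ligand of PDGFRA, was lower in each VEGF CAM, with 3058 in the pool and 1518, 2374 and 1893. Its mean log2 ratio was -0.69 ± 0.32 (SD, n = 3, limma adjusted p = 0.82). PDGFC, which also binds PDGFRA, had -0.48 ± 0.28 (limma adjusted p = 0.87). Of the 7 measured PDGF ligands and relatives of their receptors, 1 was called higher by the 2-fold rule, 0 lower, and 0 passed limma. The shares of named genes called were 5.37% higher and 6.03% lower. The call, that of PDGFB, was absent without VEGF CAM 1 or without VEGF CAM 3. It was absent too with an offset of 32, as PDGFB was close to the threshold in VEGF CAM 1 (2.03-fold). With arrays centred on their medians or with probe sets averaged, 2 genes were called higher. Neither PDGFRB nor its ligands passed limma, but 0 of the 22616 probe sets did, so this is not particular to them. The difference between ligands of the 2 receptors was not tested.

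The VEGF CAMs were not alike in the mural genes. VEGF CAM 3 had the highest ratio of the VEGF CAMs in 5 of the 8 measured genes (ACTA2, TAGLN, MYH11, MYLK and RGS5), against 31.2% of all probe sets and 31.8% of named genes past the filter. In the lists described below, it was highest in 11 of 22 contractile, 7 of 13 further mural, 4 of 7 PDGF and 9 of 15 blood endothelial genes. It was highest in 5 of 14 contraction signalling, 4 of 10 RGS, 4 of 17 fibroblast, 3 of 11 epithelial and 1 of 7 regulator genes. The pattern was thus not particular to the mural genes. The median log2 ratio of the 8 genes was close to 0 in VEGF CAMs 1 and 2 (-0.12 and -0.093) but reached 0.39 in VEGF CAM 3. Without VEGF CAM 3 the median over genes of the mean log2 ratio turned to -0.064. PDGFRB instead was highest in VEGF CAM 1, as were 32.1% of probe sets, and CALD1 and PDGFRA in VEGF CAM 2. TNNC1, a troponin of heart and slow muscle chosen here after its values were seen, had 422 in the pool and 186, 704 and 1092 in the VEGF CAMs. VEGF CAM 3 was highest here too. Among the 10 striated muscle markers past the filter, VEGF CAM 3 was highest in 4, VEGF CAM 2 in 4 and VEGF CAM 1 in 2. As 1 array stands for each membrane, spread between embryos, in the piece excised and in the hybridisation cannot be told apart.

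Of 22 other genes of the contractile apparatus measured past the filter, 1 was called higher, 1 lower and 20 neither by the 2-fold rule, with a median log2 ratio of 0.040 and 0 passing limma. Named genes were called at 5.37% higher and 6.03% lower. All VEGF CAMs were within 2-fold of the pool in 14 of the 22, close to the share of genes in general. With arrays centred on their medians 3 were called higher, and as means over probe sets 3 lower. Without VEGF CAM 1, 0 were called lower, without VEGF CAM 3, 0 higher, and without VEGF CAM 2, 0 in either direction. ACTG2, the gamma-actin of visceral and some vascular muscle, had 71.5 in the pool and 116, 66.2 and 166 in the VEGF CAMs. It was above the pool in VEGF CAMs 1 and 3, with a mean log2 ratio of 0.60 and an adjusted p of 0.87 by limma. SYNM, the filament protein synemin, was the gene called higher, over a dim 12.4 in the pool (19.1, 28.6 and 30.6 in the VEGF CAMs, mean log2 ratio 1.04).

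CSRP2, a LIM protein of smooth muscle, read 2096 in the pool and 1018, 1203 and 1199 in the VEGF CAMs. All 3 were below the pool, with a mean log2 ratio of -0.88 ± 0.14 (SD, n = 3, interval -1.54 to -0.23, limma adjusted p = 0.70). FLNA, the actin cross-linker filamin A, was the gene called lower, with 49.4 in the pool against 15.5, 21.5 and 58.2, so VEGF CAM 3 lay above the pool. NEXN, an actin-binding protein of muscle, had a mean log2 ratio of -0.74 (limma adjusted p = 0.865).

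Regulators of these genes were split. SRF, the factor that switches on contractile genes with its partner myocardin, had 194 in the pool and 247, 261 and 245 in the VEGF CAMs (mean log2 ratio 0.37, limma adjusted p = 0.87). MYOCD, myocardin itself, was dim at 22.1 in the pool and 10.5 to 24.4 in the VEGF CAMs. ELK3, an SRF partner that is also active in endothelium and was picked by the study on these arrays, read 815 in the pool and 1940, 1090 and 2035 (mean log2 ratio 1.00, limma adjusted p = 0.77). YAP1, a growth coactivator, was dim and called lower, at -1.55. VEGF CAMs 1 and 3 (6.90 and 3.46), which made the call, were below the filter level. YAP1 thus passed the filter through the pool and VEGF CAM 2. HEY2, a Notch target, and MEF2C, a muscle transcription factor, had -0.56 and -0.54 (limma adjusted p = 0.87 and 0.90). MEF2C was dim, at 16.1 in the pool, and its probe sets below the filter had 1.58 and -0.48. Of 7 such regulators past the filter, 1 was called higher and 1 lower, against 5.37% and 6.03% of named genes, and 0 passed limma. Without VEGF CAM 1 or without VEGF CAM 3, 0 were called.

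In contraction signalling, 11 of 14 measured genes were within 2-fold of the pool in all VEGF CAMs, against 69.5% of named genes. Of the 14, 1 was called higher and 1 lower, against 5.37% and 6.03% of named genes, and 0 passed limma. The gene called higher was PLCB1, a phospholipase C that releases calcium downstream of constrictor receptors. It had a dim 9.34 in the pool and 44.4, 51.4 and 37.9 in the VEGF CAMs. Its mean log2 ratio was 2.24 ± 0.22 (SD, n = 3, interval 1.16 to 3.33, limma adjusted p = 0.65). The pool signal of 9.34 was itself below the filter level, so this probe set passed through its VEGF CAM signals. A second PLCB1 probe set past the filter was level, at 21.5 in the pool and 20.2, 18.2 and 29.7 in the VEGF CAMs. The change was thus seen at 1 of these 2. The call of PLCB1 was absent with an offset of 32 and with probe sets averaged. PLCB1 probe sets that failed the filter went both ways, with mean log2 ratios from -2.72 to 3.89. KCNMB1, a subunit of the potassium channel that relaxes vessels, was the gene called lower, but it was dim at 17.4 in the pool. It ran from 5.07 to 47.7 among the VEGF CAMs. VEGF CAMs 1 and 2, which made the call, were below the filter level, so KCNMB1 passed through the pool and VEGF CAM 3. The call was absent without VEGF CAM 1 or without VEGF CAM 2. CACNA1C, a calcium channel of muscle, was not called, with 35.3 in the pool and a mean log2 ratio of -1.04 (limma adjusted p = 0.86). Its second probe set past the filter was above the pool in every VEGF CAM, at a mean of 0.61. The third had -0.95, and CACNA1C probe sets that failed the filter went both ways. ITPR3, a calcium release channel, had -0.46 (limma adjusted p = 0.865).

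Relatives of RGS5 spread widely. RGS2, which limits constrictor signalling in vessels, had 65.7 in the pool and 187, 115 and 164 in the VEGF CAMs, all above it, at a mean log2 ratio of 1.21 ± 0.36 (SD, n = 3, limma adjusted p = 0.70). RGS3 had 367 in the pool against 1296, 331 and 1337, so VEGF CAM 2 lay below the pool. RGS1 and RGS17 had mean log2 ratios of -1.15 and -1.04 at pool signals of 29.4 and 47.1. Of 10 RGS genes past the filter, 3 (RGS2, RGS3 and RGS16) were called higher and 0 lower, and 0 passed limma. Among named genes past the filter, 5.37% were called higher and 6.03% lower. Both without VEGF CAM 1 and without VEGF CAM 3, 0 of the 10 were called.

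Of 13 further pericyte and mural genes past the filter, 4 were above the pool in every VEGF CAM and 3 below it, near the shares of genes in general. ABCC9, the potassium channel subunit known from pericytes, had 186 in the pool and 356, 343 and 396 in the VEGF CAMs, a mean log2 ratio of 0.97 ± 0.11 (SD, n = 3, interval 0.24 to 1.70, limma adjusted p = 0.70). Its second probe set went from 31.0 to 108, 138 and 114, a mean log2 ratio of 1.94 (limma adjusted p = 0.65). KCNJ8, the channel pore that ABCC9 joins, was at 140 in the pool and 209, 135 and 168 in the VEGF CAMs (mean log2 ratio 0.26). CSPG4 (NG2), a pericyte proteoglycan chosen here after its values were seen, had 137 in the pool and 182, 215 and 289 (mean log2 ratio 0.71, limma adjusted p = 0.85).

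AOC3, an amine oxidase of vascular muscle, was the only one called higher, over a dim 5.27 in the pool. The VEGF CAMs read 24.1, 4.17 and 20.4, so VEGF CAM 2 lay below the pool (interval -1.92 to 4.46, limma adjusted p = 0.87). The pool and VEGF CAM 2 were both below the filter level. AOC3 thus passed the filter through VEGF CAMs 1 and 3, which also made the call. FOXC1 and MCAM, a transcription factor and an adhesion molecule of vessel walls, had mean log2 ratios of -0.94 and -0.83 at dim signals. For FOXC1 the value came from VEGF CAM 1 (1.54 against 14.4 in the pool), since the other VEGF CAMs were above the pool. Of the 13, 1 was thus called higher and 0 lower, against 5.37% and 6.03% of named genes, and 0 passed limma. The call was absent without VEGF CAM 1 or without VEGF CAM 3, and 2 were called higher with arrays centred on their medians. The median log2 ratio was 0.091. By its 3 ratios, ACTA2 was most like LUM, EBF1 and KCNJ8 among the genes of the other lists, with largest differences of 0.14, 0.24 and 0.25 on the log2 scale over the 3 VEGF CAMs.

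**Figure D4:**
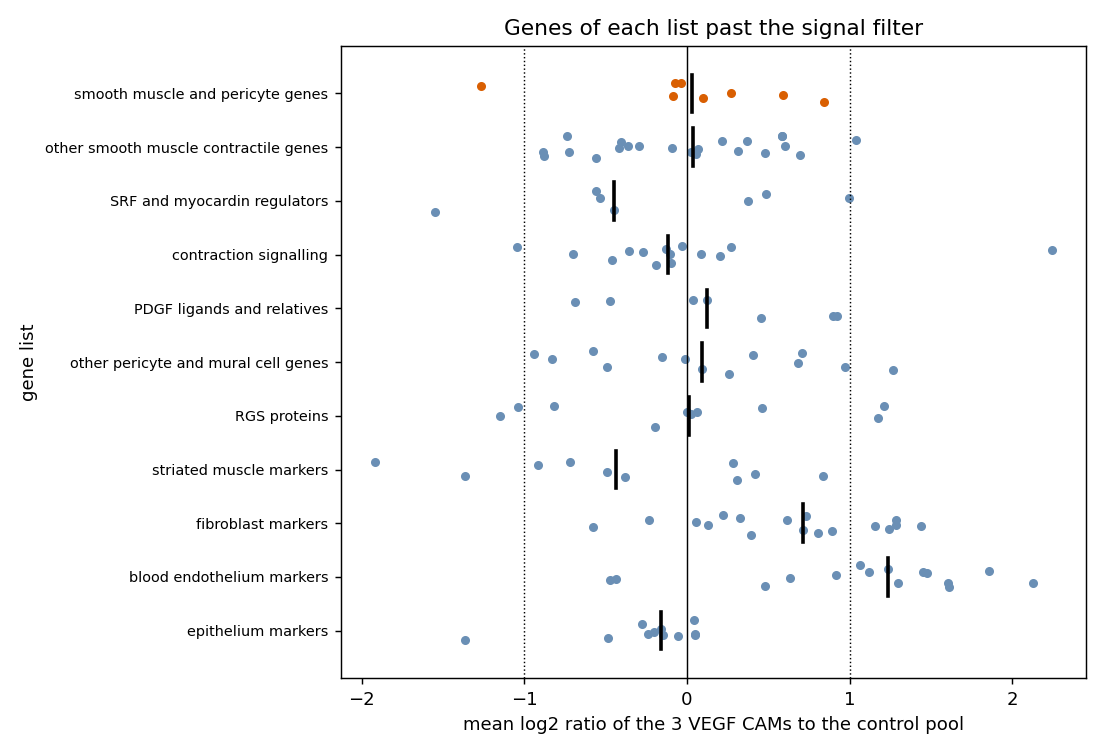
Mean log2 ratio of the 3 VEGF CAMs to the control pool (x axis) for each gene past the filter, by gene list (y axis). Each point is a gene at its brightest probe set, black bars are list medians, dotted lines mark 2-fold and the mural genes are in orange. The mural median of 0.030 lies near 0, that of fibroblast markers at 0.71 and that of blood endothelium at 1.24.

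Markers of other cell types of the membrane had other medians on the same arrays. Of 15 blood endothelial markers past the filter, 12 were called higher and 0 lower, against 5.37% and 6.03% of named genes. Their median log2 ratio was 1.24, and the summed signal went from 5969 in the pool to 13025, 8040 and 13881 in the VEGF CAMs. TEK, TIE1, FLT1 and KDR, receptors of blood endothelium, had mean log2 ratios of 2.13, 1.86, 1.61 and 1.61, with limma adjusted p values from 0.65 to 0.70. Without VEGF CAM 1 or without VEGF CAM 3, 4 of the 15 were called, and as means over probe sets 8 were called. The study picked TEK, TIE1, KDR, PECAM1, CDH5, CD34, CLDN5, SOX17, SOX18 and FLI1 on the same arrays, partly by the same 2-fold rule. The calls and the median of this list are therefore not independent of that choice.

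Of 17 fibroblast markers 5 were called higher and 0 lower, against 5.37% and 6.03% of named genes. Their median was 0.71 and their summed signal 40727 in the pool and 54642 to 75102 in the VEGF CAMs. COL6A3, COL5A2, COL6A2 and COL5A1, collagen chains of stroma, had mean log2 ratios of 1.44, 1.28, 1.28 and 1.24 (limma adjusted p from 0.65 to 0.78). A second COL6A2 probe set went the other way, at -0.89. Without VEGF CAM 2 or without VEGF CAM 3, 3 of the 17 fibroblast markers were called, and as means over probe sets 3 were called too. Epithelial markers had a median of -0.16, and 1 of 11, KRT5, was called lower at -1.36 (limma adjusted p = 0.82). The call was absent without VEGF CAM 1 or without VEGF CAM 3. It was absent too with arrays centred on their medians, with an offset of 32 and with probe sets averaged. KRT14, ELF3 and EPCAM lay between -0.48 and -0.24. The difference between the mural genes and these lists was not tested, and their part in the mural values was not tested either.

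Striated muscle shares several proteins with smooth muscle. Of 20 of its markers on the array, 10 failed the filter, among them the muscle regulators MYOD1 (4.40 in the pool and 0.440 to 1.28 in the VEGF CAMs) and MYOG (6.54 and 1.91 to 5.59). ACTA1, skeletal muscle actin, was called lower, with 175 in the pool and 56.8, 68.7 and 80.2 in the VEGF CAMs, a mean log2 ratio of -1.37 ± 0.25 (SD, n = 3, interval -2.24 to -0.49, limma adjusted p = 0.69). TNNT3, a troponin of fast muscle, had 0.823 in VEGF CAM 1 and 25.8 to 32.4 on the other arrays. ACTN2, muscle alpha-actinin, and MYH15, a ventricular myosin of birds, were near the filter (mean log2 ratios -0.91 and 0.84). The actins are nearly identical in sequence, and the tables used here do not give the probes, so cross-hybridisation between ACTA2, ACTG2 and ACTA1 cannot be judged.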

How the data were processed

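The values are signal intensity on a linear scale, as the authors deposited them after scaling each array to a common trimmed mean, and the submitters' processing notes name GCOS 1.2. Detection calls were not used here. Probe sets with Gga identifiers (37693 of 38535) were taken as chicken. Gene names came from the platform table (27166 probe sets with 1 symbol, 177 with several, 10350 with none). Of the probe sets with 1 symbol 98.8% were found in RefSeq, used for names only, and genes were matched by symbol, not by synonym. Where a gene has several probe sets, the one with the greatest average over the 4 arrays represents it.

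Log2 ratios to the control pool were taken from the deposited intensity without pseudocount. A gene was called when beyond 2-fold in the same direction in 2 or 3 comparisons. The study's rule also asked for a present call in the VEGF-A group, which the signal filter replaces here. limma 3.58.1 in R 4.3.3 was fitted with a variance trend over 22616 probe sets (2 residual and 5.23 prior degrees of freedom), and plots were made with matplotlib 3.10.9. Functions were tested on simulated data with changes of 2-, 4- and 8-fold. There the 95% intervals held the true value in 92.8%, 88.4% and 88.5% of cases. Of the simulated 2-fold changes, limma passed 7.16% and the 2-fold rule called 46.3%. In the simulation all probe sets of like signal had the same spread, and the control varied like the VEGF CAMs. These rates may therefore not hold for the real arrays. The members and lists were chosen with earlier results of these data known. Named genes are all members, up to 4 genes of each other list with the largest mean change, the 3 nearest to ACTA2, and genes of known role in the same lists (ACTG2, SRF, MYOCD, TNNC1, CSPG4, RGS16, MYOD1 and MYOG), chosen after their values were seen. The number of arrays limits the precision. The analysis was repeated with arrays median-centred or quantile-normalized, signals floored at the 20th percentile or offset by 32, the filter dropped or moved to the 60th percentile, the trend left out, probe sets averaged, and each VEGF CAM left out in turn. With a VEGF CAM left out, a call needed both remaining CAMs beyond 2-fold, so a call resting on 2 CAMs was lost when either was left out. No sequences were used here.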

Additional observations from a re-analysis of the deposited data

How the results depend on the processing

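No paired analysis was possible because the control is a single pool of RNA from 3 normal CAMs, with no partner for each VEGF CAM. Of 99 recomputed log2 ratios of members, 91 kept their direction and 8 changed sign, all of TAGLN, MYLK or RGS5. The count of 91 overstates stability, since changing the filter or leaving out the trend cannot alter a log2 ratio. Averaging probe sets cannot alter ACTA2, TAGLN, MYH11 or PDGFRA, which have a single probe set, and the floor altered DES alone. Centring on array medians raised the median log2 ratio of all probe sets past the filter by 0.25. There TAGLN turned to 0.22, MYLK to 0.18 and RGS5 to 0.17, and 1 member (MYH11) was called higher. The share of higher probe sets among all calls was 42.3% with the deposited scaling, 66.6% after centring and 55.9% after quantile normalization.

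With an offset of 32, 0 members were called lower, 6 intervals lay within 2-fold and 1 gene of the other lists was called lower. A probe set with a pool signal below 32, such as that of PDGFRA, cannot be called lower at this offset. Losing its call was therefore fixed in advance. In the PDGF, contraction signalling, other contractile and further mural lists, 0 genes were called higher at this offset. Without a filter, 2 members (DES joined PDGFRA) and 14 genes of the other lists were called lower and the median log2 ratio of the members turned to -0.038. With the 60th percentile filter, which PDGFRA fails, these counts were 0 and 3. As means over probe sets, 8 genes of the other lists were called lower, against 5. Without a trend, 0 intervals lay within 2-fold. Leaving out each VEGF CAM in turn, members called lower ranged from 0 to 1, intervals within 2-fold from 1 to 3, the median of the members from -0.064 (without VEGF CAM 3) to 0.130, genes of the other lists called higher from 8 to 22 (25 with all) and lower from 1 to 3. Over the same omissions the log2 ratio ran from -0.26 to 0.083 for TAGLN, from -0.18 to 0.0090 for MYLK and from -0.43 to 0.15 for RGS5, above 0 without VEGF CAM 2 in each, and without VEGF CAM 1 in TAGLN and RGS5. Of the 99, 79 had a limma test, and 0 passed it. The other 20 had none, being means over probe sets or below the filter. The causes were not tested. Dim signals of ACTA2, DES and PDGFRA limit what can be read from them.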
